A study of Mus musculus with 2 samples.

Results

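The proteasome genes were taken as every symbol of the deposited expression table that starts with Psm, a letter from a to g and a number, with names ending in -ps left out. This gave 50 of the 24054 genes in the table. Liver RNA of male Pgrmc1 KO (Pgrmc1 -/Y) mice and of male wild-type (WT) mice, both on C57BL/6 and both 8 to 12 weeks old, was sequenced as 1 pooled library per genotype, each made by mixing 2.5 μg of RNA from each of 5 mice. The KO mice lacked exons 1 and 2 of Pgrmc1 in the whole body, after a floxed allele was recombined by Cre from the Sox2 promoter, which acts in the early embryo. The floxed mice were made on C57BL/6N and the Cre line is B6.Cg-Tg(Sox2-cre)1Amc/J. The labels give the controls as WT and C57BL/6 with no substrain, and whether they carried the floxed allele or Cre is not given in the sources used here. Pooling before library preparation hid the spread between mice, so the differences given here have no replicate check and no p-value was computed.

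The 26S proteasome is the protease that degrades proteins tagged with ubiquitin chains. Its 20S core is a barrel of stacked rings, with outer rings of alpha subunits (Psma genes) that gate the entrance and inner rings of beta subunits (Psmb genes), some of which carry the active sites. A 19S regulatory particle sits on the end of the barrel, and its ring of ATPases (Psmc genes) unfolds the substrate while its non-ATPase subunits (Psmd genes) bind and remove ubiquitin. Dedicated chaperones build these parts, alternative activators (Psme genes) can take the place of the 19S particle, and interferon replaces the active beta subunits by those of the immunoproteasome. In many cell types the subunit genes are induced together by the transcription factor NRF1 (gene Nfe2l1) when proteasome activity is short. The study asked how loss of Pgrmc1, a membrane protein that binds heme and cytochromes P450, affects P450 proteins in liver, and the RNA libraries address whether transcripts differ between the genotypes.

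TPM gives transcript copies scaled to a total, a measure per transcript length, with nearly equal totals here (1005325 in KO and 994702 in WT). The level of a gene is given in TPM. Its change is log2((KO TPM + 1)/(WT TPM + 1)), on which low genes appear to change less than they do. Counting intervals (95%, Clopper-Pearson) belong to the log2 ratio of the authors' mean signals and cover counting error only. They rest on 22086692 estimated reads on genes in KO and 29710419 in WT. Pgrmc1 itself followed the labels, at 0.68 TPM in KO and 949.49 in WT. Hepatocyte transcripts were abundant in both libraries, with albumin (Alb) at 47241.79 TPM in KO and 49729.07 in WT.

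No proteasome gene changed by 1.4-fold in either direction. Of the 50 genes, 48 had a mean TPM of 1 or more, and the other 2 were Psmb11, the thymus-specific beta subunit, and Psmc3ip, which matches the symbol rule but encodes a factor of meiotic recombination. Among all 11623 genes with a mean TPM of 1 or more, 2.23% changed by 1.4-fold (1.21% higher and 1.02% lower), so a count of 0 among 48 is close to what the whole table gives. At 2-fold the shares of all genes were 0.387% higher and 0.112% lower, 0.499% in all. At 1.1-fold, 9 of the 48 were lower in KO (18.8%) against 17.8% of all genes, and 2 were higher (4.17%) against 15.0%, or 32.7% in either direction. At 1.2-fold 2 were lower (4.17%), Psmc6 and Psmd10, against 5.51% of all genes, and 0 were higher against 5.39%, or 10.9% in either direction. At these folds the members were close to, or below, the shares of all genes. At matched level the share at 1.1-fold was higher, since 8 of the 32 members with a mean of 50 to under 200 TPM were lower by that much, against 15.5% of all 1229 genes in that range.

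Most members were lower in KO, chiefly the constitutive subunits. Of the 48, 38 (79.2%) were lower in KO, against 53.8% of all genes with a mean TPM of 1 or more, and 10 were higher, against 45.8%. Their median log2 change was -0.09 against -0.01. Most of these were constitutive subunits of the core and of the regulatory particle. Of 31 such subunits 30 (96.8%) were lower in KO, with a median of -0.11 and changes from -0.27 for Psmc6 to 0.00 for Psmd3. Among all 1229 genes with a mean of 50 to under 200 TPM, where 32 of the members lie, 58.9% were lower, with a median of -0.02, and 30 of those 32 members were. The other 17 members with a mean TPM of 1 or more, which are assembly factors, activators, the inhibitor, immune subunits and Psma8, were split, with 8 lower and 9 higher and a median of 0.01. Genes of 1 complex are not independent replicates, and the difference between these groups of genes was not tested. In RNA from whole liver, fewer cells of a type and less RNA per cell cannot be told apart.

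**Figure D1:**
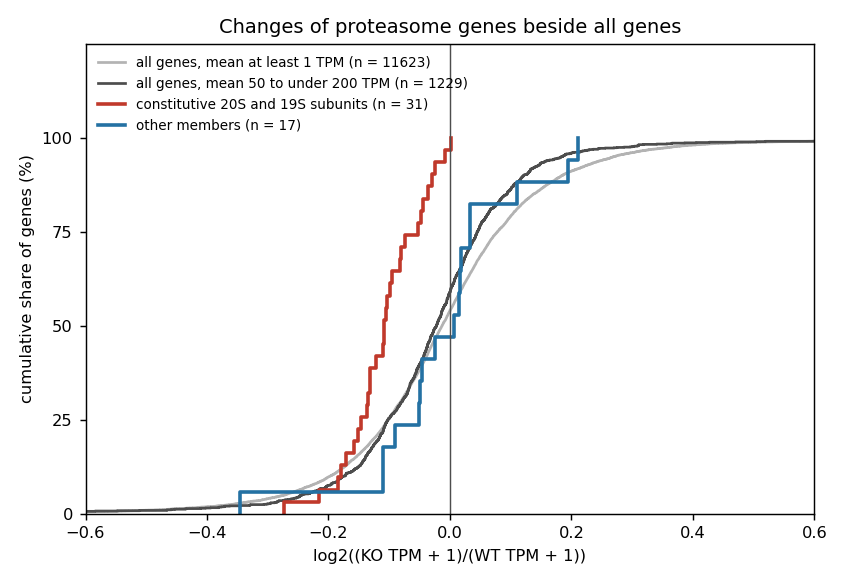
Cumulative share of genes (vertical axis, percent) by log2((KO TPM + 1)/(WT TPM + 1)) (horizontal axis) for 31 constitutive 20S and 19S subunits, 17 other members, all 11623 genes with a mean TPM of 1 or more and all 1229 genes with a mean of 50 to under 200 TPM. The curve of the constitutive subunits lies left of 0 but for Psmd3, while that of the other members runs close to the curves of all genes.

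The counting intervals show how much of this is beyond counting error in these 2 libraries. Of the 48 members, 17 had an interval wholly below 0 (35.4%) and 0 had one above 0, while 31 intervals held 0. Among the 11543 genes with a mean TPM of 1 or more that also have an authors' mean, 13.4% lay wholly below 0 and 11.7% wholly above. Deeply sequenced genes have narrower intervals. In the range of 50 to under 200 TPM, 16 of 32 members lay below 0, against 24.9% of 1224 genes.

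Promoters of 4 subunit genes are shown for the sequence context of the changes, picked after their values were seen. Psmc6 and Psmc1 had the largest changes of the ATPase ring, Psma2 that of the alpha ring, and Psmb5, an active-site subunit, lay close to 0. Each sequence covers 250 bases up to the start site, on the strand of the gene, from RefSeq on GRCm38.p6 (the mm10 assembly). Capitals mark matches, on either strand, to TGACNNNGC, the core of the antioxidant response element bound by NRF1 and NRF2, to the ETS core CGGAAG, to the CCAAT box and to the site of nuclear respiratory factor 1, which is a different protein from the NRF1 encoded by Nfe2l1.
Psmc6, chr14:45329574-45329823, plus strand: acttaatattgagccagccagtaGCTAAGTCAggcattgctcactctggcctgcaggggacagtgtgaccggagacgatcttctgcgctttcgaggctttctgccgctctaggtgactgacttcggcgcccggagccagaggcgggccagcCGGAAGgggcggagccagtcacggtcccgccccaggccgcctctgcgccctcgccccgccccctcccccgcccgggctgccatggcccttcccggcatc
Psmc1, chr12:100109952-100110201, plus strand: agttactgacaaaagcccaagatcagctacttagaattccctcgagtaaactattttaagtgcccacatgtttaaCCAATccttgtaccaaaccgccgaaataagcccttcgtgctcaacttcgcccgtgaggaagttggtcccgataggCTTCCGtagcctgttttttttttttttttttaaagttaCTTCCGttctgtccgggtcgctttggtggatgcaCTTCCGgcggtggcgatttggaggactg
Psma2, chr13:14612992-14613241, plus strand: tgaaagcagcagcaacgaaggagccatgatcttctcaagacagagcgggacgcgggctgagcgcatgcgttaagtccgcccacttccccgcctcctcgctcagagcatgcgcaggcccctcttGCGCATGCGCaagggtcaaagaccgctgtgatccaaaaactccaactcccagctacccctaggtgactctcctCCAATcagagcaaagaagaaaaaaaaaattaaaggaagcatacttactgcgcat
Psmb5, chr14:54617996-54618245, minus strand: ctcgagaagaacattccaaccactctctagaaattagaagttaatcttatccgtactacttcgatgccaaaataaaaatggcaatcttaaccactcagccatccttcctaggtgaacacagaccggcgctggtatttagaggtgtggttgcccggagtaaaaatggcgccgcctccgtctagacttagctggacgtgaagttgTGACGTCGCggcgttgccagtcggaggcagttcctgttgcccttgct

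The 4 promoters differ in which of these letters they hold. Psmc6 has an antioxidant response element core at positions -227 to -219 from the start site and 1 ETS core. Psmc1 has 3 ETS cores, all on the opposite strand, and a CCAAT box. Psma2 has a CCAAT box and the respiratory factor site but no ETS core, and Psmb5 has an antioxidant response element core at -47 to -39. The element core was present in the ATPase gene with the largest change and in a beta gene with a change near 0. Whether any motif goes with the size of a change was not tested.

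In windows of 300 bases (250 before to 50 after the start), 9 motifs were searched in the 42 members with a RefSeq promoter, on both strands, and set beside 27025 genes of that table and the 4717 of them with a mean TPM of 10 or more. The ETS core CGGAAG was found in 23 of 42 members (54.8%), in 18.8% of all genes and in 38.0% of the expressed ones. The antioxidant response element core TGACNNNGC was found in 6 (14.3%), against 14% and 17.5%. These 6 were Psmb5, Psmb6, Psmc6, Psmd12, Psmd9 and Psme4. The nuclear respiratory factor 1 site was found in 7 members (16.7%, against 5.19% and 13.0%) and CCAAT in 15 (35.7%, against 41.1% and 43.8%). The core of the interferon-stimulated response element was found in 5 (11.9%, against 3.99% and 3.5%), namely Psmb3, Psmd4, Psmd9, Psme1 and Psmg4, and in none of the 3 immunoproteasome genes. For the GC box GGGCGG the count was 23 (54.8%, against 38.2% and 69.2%), for ATGGCGG, the core of the YY1 site, 4 (9.52%, against 4.69% and 10.8%), for TATAAA 4 (9.52%, against 15.7% and 9.14%) and for TTCNNNGAA, a site of STAT factors, 3 (7.14%, against 9.55% and 7.65%). GC box matches in Psma2 and Psmc6 are not in capitals above. Psma8, Psmb1, Psmb2, Psmb7, Psmc3, Psmd3, Psmd7 and Psmg2 have no entry in that table. A match says only that these letters are present.

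The alpha ring showed a lower level in KO for all 7 of its constitutive members, with a median change of -0.14. Psma2 stood at 106.66 TPM in KO and 121.28 in WT, a change of -0.18, with a counting interval from -0.27 to -0.06. Psma4 was at 140.18 and 155.81 TPM, a change of -0.15 (-0.22 to -0.05). Psma6 was at 113.29 and 125.53 TPM, a change of -0.15 (-0.23 to -0.03). These 3 were the alpha subunits past 1.1-fold. Psma1 (96.64 TPM in KO and 106.28 in WT) and Psma3 (115.55 and 126.95 TPM) changed by -0.14 and -0.13, and their intervals also lay below 0. Psma7 changed by -0.11 (127.99 and 138.12 TPM), with an interval of -0.19 to 0.01. Psma5 was the exception in size, at 72.90 TPM in KO and 74.16 in WT, a change of -0.02 with an interval of -0.12 to 0.11. It was also the least abundant constitutive subunit of the core in both libraries. Psma8, which replaces Psma7 in the testis, was barely present, at 1.12 TPM in KO and 1.11 in WT. Summed over the 7 constitutive alpha genes, the level was 773.21 TPM in KO and 848.13 in WT.

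The beta ring lay closer to 0. All 7 constitutive beta genes were lower in KO, but the median change was -0.05, 0 of the 7 reached 1.1-fold, and every one of the 7 counting intervals held 0. Of all genes with a mean of 50 to under 200 TPM, 15.5% were lower by 1.1-fold and 24.9% had an interval below 0. A count of 0 among 7 at 1.1-fold is close to that share. The active-site subunits were Psmb5 (chymotrypsin-like activity), Psmb6 (caspase-like) and Psmb7 (trypsin-like). Psmb5 was at 103.00 TPM in KO and 106.88 in WT, a change of -0.05 (interval -0.15 to 0.09). Psmb6 was at 132.02 and 136.21 TPM, a change of -0.04 (-0.12 to 0.07). Psmb7 was the most abundant of all members, at 189.1 and 193.94 TPM, a change of -0.04 (-0.10 to 0.07). Of the subunits without an active site, Psmb2 had the largest change, -0.11 (99.34 TPM in KO, 106.93 TPM in WT). Psmb1 (144.84 and 153.27 TPM) changed by -0.08 and Psmb4 (168.72 and 174.43 TPM) by -0.05. Psmb3 stood at 154.51 TPM in KO and 155.4 in WT, a change of -0.01 whose sign turned with the authors' means (0.02) and after centring on the median gene (0.0049). The summed level of the ring was 991.53 TPM in KO and 1027.06 in WT, a ratio of 0.965, against 0.912 for the alpha ring with Psma8. Medians and sums of the alpha and beta rings thus differed in these libraries, although each barrel holds alpha and beta subunits in equal number. The changes of their genes overlapped, with Psma5 at -0.02 and with both Psma7 and Psmb2 at -0.11. Whether the rings differ was not tested.

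**Figure D2:**
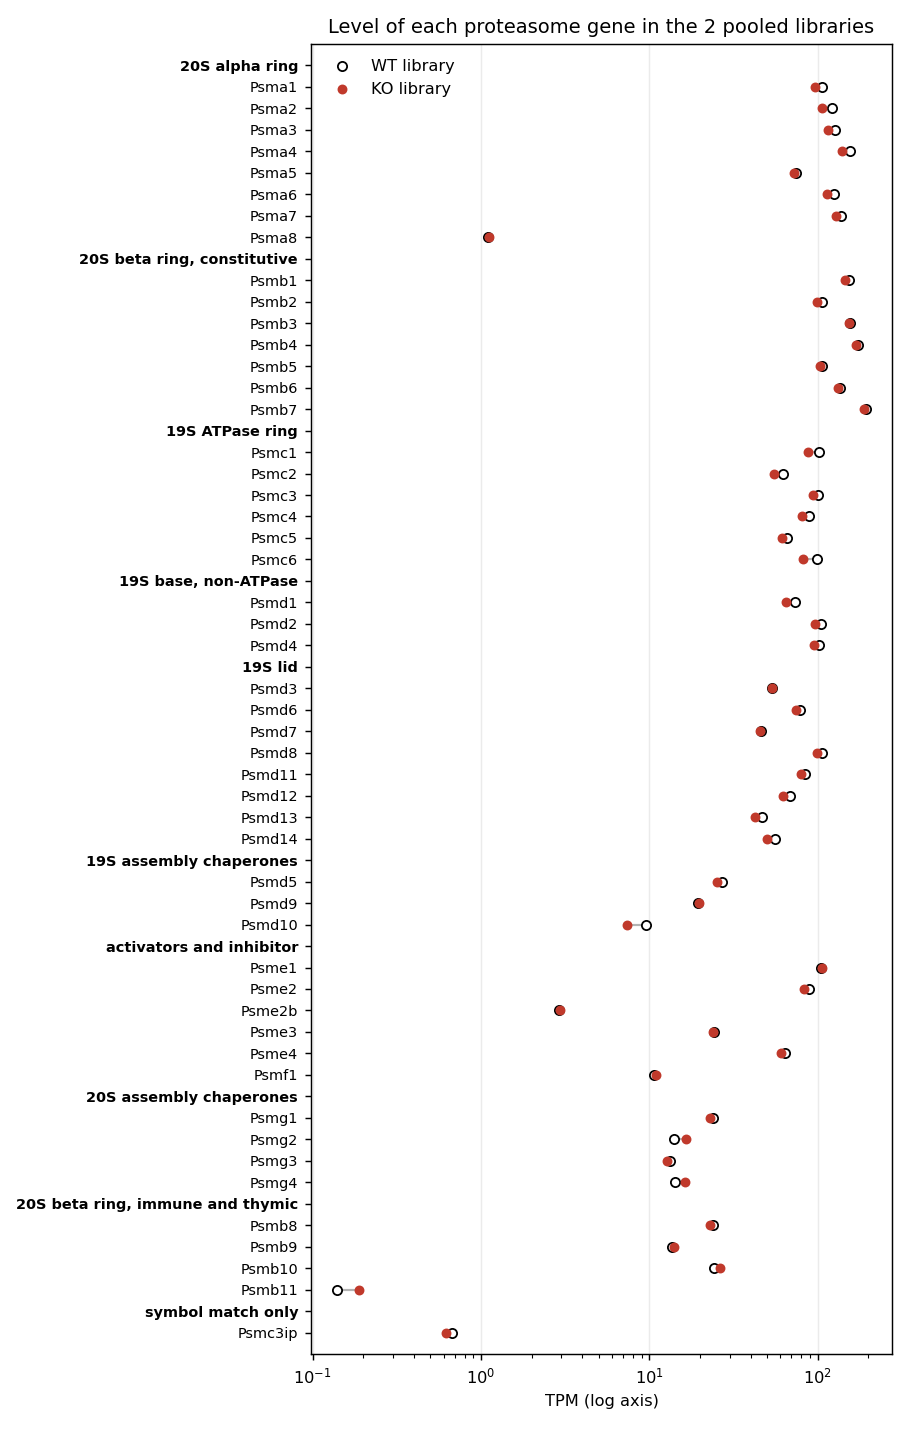
TPM (horizontal log axis) of each of the 50 members in the WT library (open circles) and the KO library (red points), grouped by subcomplex. Constitutive subunits lie between 42.7 and 193.94 TPM, the immune subunits and the core's assembly chaperones between 12.75 and 26.2 TPM, and Psmb11 and Psmc3ip below 1 TPM.

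The ATPase ring had the lowest median change of the 9 subcomplexes. All 6 genes were lower in KO, with a median change of -0.16 and a summed level of 461.39 TPM in KO and 519.83 in WT, a ratio of 0.888. Psmc6 (Rpt4; Entrez gene 67089; GRCm38 chromosome 14, bases 45329823 to 45349074) stood at 82.37 TPM in KO and 99.73 in WT, a change of -0.27 (interval -0.35 to -0.17, on 1617 and 2615 estimated reads). It was the constitutive subunit with the largest change, and of 1316 genes within 2-fold of its level 3.80% had a lower value. Psmc1 (Rpt2, whose tail helps to open the gate of the core) was at 88.15 and 102.57 TPM, a change of -0.22 (-0.29 to -0.11), with 6.07% of 1268 genes at its level lower. Psmc2 (Rpt1) was at 55.11 and 62.52 TPM, a change of -0.18 (-0.27 to -0.06). These 3 were past 1.1-fold, and Psmc6 alone past 1.2-fold. Psmc4 (80.56 TPM in KO and 88.37 in WT) changed by -0.13 with an interval below 0. Psmc3 (93.63 and 100.37 TPM) changed by -0.10, and its interval ended at -0.0002. Psmc5 (61.57 and 66.27 TPM) changed by -0.10 with an interval of -0.21 to 0.03.

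The large scaffold subunits of the 19S base, which receive ubiquitin and its shuttle factors, were lower in KO like the ATPases. Psmd1 (Rpn2) was at 65.27 TPM in KO and 73.58 in WT, a change of -0.17 (interval -0.23 to -0.09). Psmd2 (Rpn1) was at 97.15 and 104.97 TPM, a change of -0.11 (-0.16 to -0.04). The ubiquitin receptor Psmd4 (Rpn10) was at 95.8 and 101.48 TPM, a change of -0.08 (-0.16 to 0.03). Each was lower in KO, and the interval of Psmd4 alone held 0.

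In the lid, which holds the deubiquitinase, 7 of 8 genes were lower in KO and the median change was -0.10. Psmd14 (Rpn11), that deubiquitinase, had the largest change, -0.16 (50.01 and 55.9 TPM, interval -0.26 to -0.03). Psmd13 (42.7 TPM in KO and 46.87 in WT) changed by -0.13, Psmd12 (62.64 and 68.23 TPM) by -0.12 and Psmd8 (98.81 and 106.67 TPM) by -0.11. The intervals of Psmd12 and Psmd8 lay below 0 and that of Psmd13 held 0. Psmd11 (79.25 and 84.77 TPM) changed by -0.10, Psmd6 (74.65 and 78.65 TPM) by -0.07 and Psmd7 (45.31 and 46.29 TPM), the partner of Psmd14, by -0.03, and all 3 intervals held 0. Psmd3 (Rpn3) was the 1 constitutive subunit that was not lower, at 53.35 TPM in KO and 53.29 in WT. Its interval ran from -0.08 to 0.11.

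**Figure D3:**
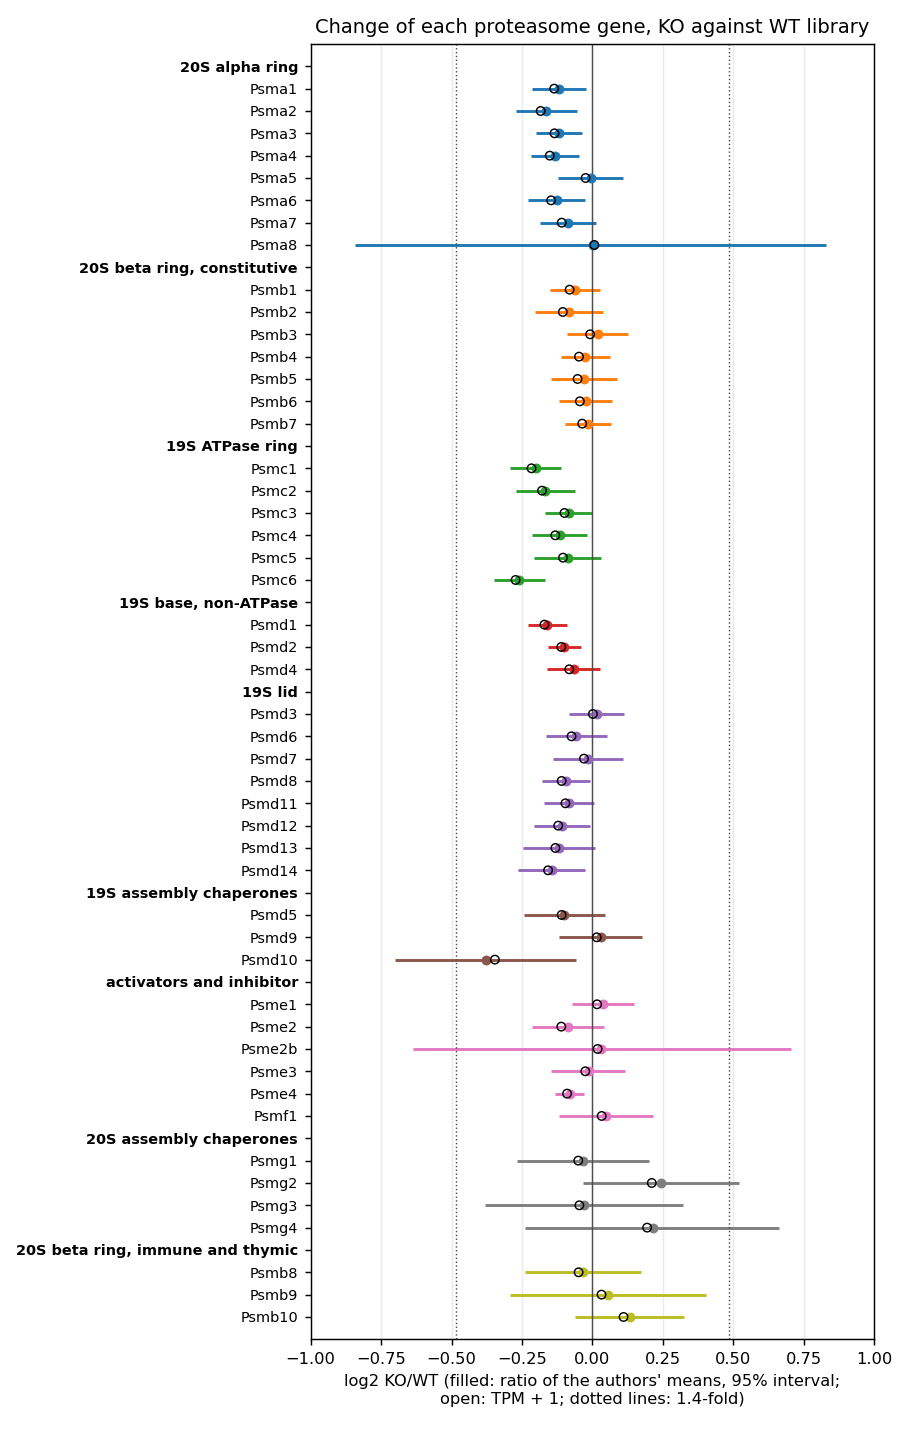
Log2 change of the 48 members with a mean TPM of 1 or more (horizontal axis), as the ratio of the authors' means (filled points) with its 95% counting interval (bars) and from TPM + 1 (open circles), with dotted lines at 1.4-fold. The points of the alpha ring, ATPase ring, base and lid lie left of 0 apart from Psmd3 and Psma8, those of the constitutive beta ring lie near 0, and Psmg2 and Psmg4 lie farthest to the right.

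The assembly factors did not share a direction. Psmd10 (gankyrin; Entrez gene 53380, chromosome X, 140948425 to 140956711), a chaperone of the ATPase ring that binds Psmc4, had the largest change of all members. It was at 7.33 TPM in KO and 9.59 in WT, a change of -0.35 (interval -0.70 to -0.06, on 130 and 228 estimated reads). Of 4429 genes within 2-fold of its level, 2.44% had a lower value. Of the other chaperones of the base, Psmd5 (25.12 and 27.18 TPM) changed by -0.11 and Psmd9 (19.82 and 19.6 TPM) by 0.02, and both intervals held 0.

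The chaperones of the core lay above or near 0. Psmg1 and Psmg2 form one dimer that helps to set the alpha ring, and Psmg3 and Psmg4 form another. Psmg2 was at 16.46 TPM in KO and 14.09 in WT, a change of 0.21 (interval -0.03 to 0.52), and Psmg4 was at 16.33 and 14.15 TPM, a change of 0.19 (-0.24 to 0.66). These were the highest changes among the members, the only 2 past 1.1-fold upward, and both intervals held 0, on 205 and 79 estimated reads in KO. Their partners Psmg1 (22.92 TPM in KO and 23.77 in WT) and Psmg3 (12.75 and 13.2 TPM) both changed by -0.05. Within each dimer the genes of the partners therefore had values of opposite sign, and all 4 intervals held 0. Pomp, the maturation factor of the beta ring, whose symbol lies outside the rule, was at 171.09 TPM in KO and 179.39 in WT, a change of -0.07 (interval -0.14 to 0.06).

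The immunoproteasome subunits were low beside the constitutive ones and were split in direction. Psmb8 replaces Psmb5, and was at 22.99 TPM in KO and 23.82 in WT, a change of -0.05. Psmb9 replaces Psmb6, and was at 13.97 and 13.64 TPM, a change of 0.03. Psmb10 replaces Psmb7, and was at 26.2 and 24.2 TPM, a change of 0.11 (interval -0.06 to 0.32). All 3 intervals held 0. As a share of each pair's summed TPM, Psmb8 made up 18.2% in KO and 18.2% in WT, Psmb9 9.57% and 9.10%, and Psmb10 12.2% and 11.1%. In WT liver the pair of Psmb8 and Psmb5 thus held the highest share of the induced subunit. Psmb11 was at 0.19 TPM in KO and 0.14 in WT, on 10 estimated reads in each library.

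Since leukocytes express the immune subunits, marker genes are given beside them. Ptprc, which marks leukocytes in general, was at 5.06 TPM in KO and 5.07 in WT. Of 7 Kupffer cell and macrophage markers 6 were higher in KO, and their summed level was 163.79 TPM in KO and 148.1 in WT. Cd68 alone was lower, with a change of -0.26 (7.37 TPM in KO and 8.99 in WT). The intervals of Clec4f, Csf1r and Emr1 lay above 0 and the other 4 held 0. Of 4 T cell markers 3 were higher, at a summed level of 1.46 and 0.88 TPM, and of 4 B cell markers 2 were, at 2.40 and 1.83 TPM. The T cell markers had at most 9 estimated reads each and the B cell markers at most 19, and every one of these intervals held 0. Of 4 endothelial markers 0 were higher in KO (sum 71.95 and 82.85 TPM). Lyve1 had the largest change of these, -0.60 (11.47 TPM in KO and 17.94 in WT). The intervals of Lyve1 and Pecam1 lay below 0, and those of Stab2 and Kdr held 0. Of 3 stellate cell markers 1 was higher, Lrat (sum 158.56 and 177.92 TPM), and of 6 hepatocyte markers 1, Cyp2e1 (sum 77536.02 and 80430.73 TPM). Among the hepatocyte markers 4 intervals lay below 0, and among the stellate markers 2 did. Ass1 had the largest change of the hepatocyte markers, -0.47 (459.74 TPM in KO and 637.35 in WT, interval -0.48 to -0.41). The intervals of Lrat, Cyp2e1 and Apoa1 lay above 0, against the direction of their sums. Apoa1, a hepatocyte marker, was lower by TPM (12054.57 in KO and 12085.39 in WT). No marker was listed at 0. The part of cell makeup in the proteasome values was not tested.

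The activators were split. The PA28 activator pairs Psme1 with Psme2 and is induced by interferon like the immune subunits. Psme1 was at 106.33 TPM in KO and 105.11 in WT, a change of 0.02, and Psme2 at 82.76 and 89.44 TPM, a change of -0.11 (interval -0.22 to 0.04). Psme2b, a copy of Psme2 at 2.95 and 2.90 TPM, holds 44.5% of the 100-base windows of the Psme2 transcript, so reads of the pair can be shared, and their summed TPM of 85.71 in KO and 92.34 in WT gave the same change of -0.11. Psme4 (PA200), the longest member, changed by -0.09 (60.45 and 64.41 TPM), and on 5347 and 7638 estimated reads its interval of -0.13 to -0.03 lay below 0. Psme3 (PA28 gamma, the nuclear activator) was at 23.84 and 24.28 TPM and the inhibitor Psmf1 (PI31) at 11 and 10.73 TPM, with changes of -0.03 and 0.03. Apart from Psme4, the intervals of these genes held 0. Over all members, 14 shared a window with another gene of the annotation, 3 of them (Psme2, Psme2b and Psmb5) with a gene of the expression table, and 36 shared none.

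Levels within the complex spanned a narrow range that was alike in both libraries. Among the 14 constitutive core subunits TPM ran from 72.9 to 189.1 in KO and from 74.16 to 193.94 in WT, with Psma5 lowest and Psmb7 highest in each, a ratio of 2.59 and 2.62. Among the 17 constitutive 19S subunits it ran from 42.7 to 98.81 in KO and from 46.29 to 106.67 in WT. The median was 121.8 TPM in KO and 131.6 in WT for the core and 74.65 and 78.65 TPM for the 19S particle. Psmd8 was the highest of the 19S subunits in both libraries, while the lowest was Psmd13 in KO and Psmd7 in WT, which were close to each other. Over all 50 members the summed level was 3464.22 TPM in KO and 3697.75 in WT, a ratio of 0.937.

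Proteins that work beside the proteasome were taken from a written list of 17 symbols, of which 13 are in the table. Of these 10 were lower in KO (76.9%) and 3 higher, with a median change of -0.07 and 0 past 1.4-fold. Of all genes with a mean TPM of 1 or more 53.8% were lower, and 2.23% changed by 1.4-fold. Adrm1 (Rpn13), a ubiquitin receptor of the 19S particle, was lowest, at 51.4 TPM in KO and 63.29 in WT, a change of -0.30 (interval -0.40 to -0.16). Its change was larger than that of any constitutive Psm subunit. Txnl1, a thioredoxin-like protein bound to the particle, changed by -0.19 (51.23 and 58.55 TPM, interval -0.27 to -0.09) and Shfm1 (Sem1, the smallest lid subunit) by -0.11 (157.65 and 170.47 TPM, interval -0.21 to 0.07). The deubiquitinases Usp14 (19.34 and 20.29 TPM) and Uchl5 (13.64 and 13.43 TPM) changed by -0.07 and 0.02, and the ligase Ube3c was highest, at 0.04. Adrm1 and Shfm1 are subunits without a Psm symbol, and both had values below 0 like most of the Psm subunits.

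Ubiquitin and the factors that bring it to the proteasome gave 13 of 19 genes lower in KO, 5 higher and a median of -0.07. The share lower was 68.4%, against 53.8% of all genes with a mean TPM of 1 or more. The stress-inducible polyubiquitin gene Ubb was at 436.79 TPM in KO and 500.6 in WT, a change of -0.20 (interval -0.22 to -0.13). Rps27a, which encodes ubiquitin fused to a ribosomal protein, changed by -0.02 (342.17 and 347.56 TPM), and its interval held 0. Vcp (p97, the segregase that pulls proteins from the endoplasmic reticulum for degradation) was at 211.52 TPM in KO and 234.89 in WT, a change of -0.15 (interval -0.18 to -0.10). Its cofactor Ufd1l was lowest of the list at -0.20 (20.66 and 23.91 TPM) and the shuttle factor Ubqln2 highest at 0.12 (8.44 and 7.67 TPM).

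Nfe2l1 stood at 41.12 TPM in KO and 41.2 in WT, a change of -0.0027 (interval -0.07 to 0.08). Ddi2, the protease that releases the NRF1 protein, changed by 0.10 (96.64 and 90.25 TPM, interval 0.06 to 0.17), and Ngly1, which removes its sugars, by -0.06 (26.77 and 27.93 TPM). Among the 13 genes of this list 8 were lower in KO (61.5%, against 53.8% of all genes), with a median of -0.02. The lowest was Tmub1 at -0.33 (4.82 and 6.30 TPM), on 77 and 135 estimated reads, and its interval of -0.80 to 0.04 held 0. The highest was Ogt at 0.15 (25.55 and 22.90 TPM, interval 0.07 to 0.25). The small Maf partner Mafg changed by -0.31 (25.41 and 31.67 TPM, interval -0.46 to -0.14). The small Maf genes Mafk (7.32 and 7.56 TPM) and Maff (3.14 and 4.01 TPM) changed by -0.04 and -0.28, and both intervals held 0. The transcript level says nothing of NRF1 protein, which is controlled by its own degradation. Genes of antigen presentation, many of which are induced with the immune subunits, had a median of 0.01 over 13 genes. Against 53.8% lower among all genes, 5 of them were lower (38.5%) and 8 higher. Their changes ran from -0.20 for Tap2 (10.95 and 12.75 TPM) to 0.16 for Irf1 (22.30 and 19.86 TPM). Of the 13 intervals, 4 lay below 0, 4 lay above 0 and 5 held 0.

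**Figure D4:**
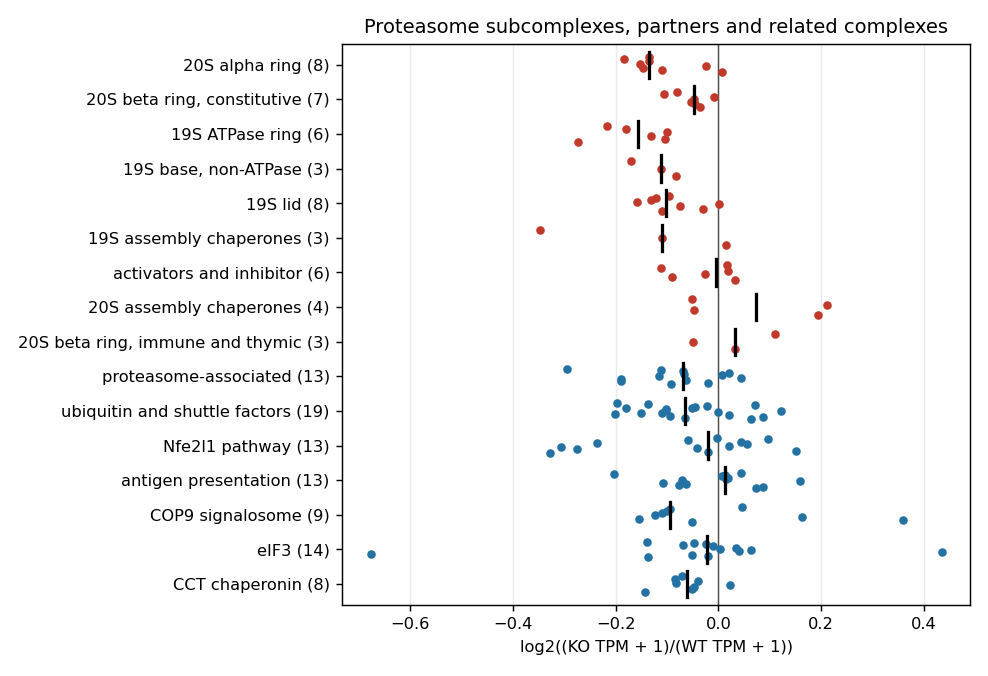
Log2((KO TPM + 1)/(WT TPM + 1)) of single genes (points) with the median of each list (black bars) for 9 proteasome subcomplexes (red) and 7 lists of partners and related complexes (blue), genes with a mean TPM of 1 or more, number of genes in brackets. Medians run from -0.16 for the ATPase ring to 0.07 for the core's assembly chaperones.

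Other large complexes of liver cells serve as a scale. The COP9 signalosome and the translation factor eIF3 share the architecture of the lid. The CCT chaperonin is a folding machine built of rings of paralogous subunits. In the CCT chaperonin 7 of 8 genes were lower in KO, with a median of -0.06 and changes from -0.14 for Cct8 to 0.02 for Cct5. In the signalosome 6 of 9 were lower with a median of -0.09, from -0.15 for Cops7a to 0.36 for Cops7b, and in eIF3 9 of 14 with a median of -0.02, from -0.68 for Eif3j2 to 0.43 for Eif3j1. Eif3j1 and Eif3j2 are near-identical copies between which reads can be shared, and the sign of both turned with the authors' means, in which Eif3j2 was higher in KO (0.34) and Eif3j1 rested on 0 estimated reads in KO. The shares lower in KO were 87.5% for the chaperonin, 66.7% for the signalosome and 64.3% for eIF3. Among all genes with a mean TPM of 1 or more 53.8% were lower, and 58.9% at 50 to under 200 TPM. The signalosome and eIF3 were thus closer to the shares of all genes than the chaperonin. The median of the constitutive proteasome subunits, -0.11, lay below the medians of all 3 complexes. That of all 48 members, -0.0862, lay above the median of the signalosome, -0.0946. Whether the proteasome differs from these complexes was not tested.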

How the data were processed

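Per the labels and the study's methods, RNA was sequenced with a TruSeq Stranded Total RNA kit, and the authors converted the reads with CASAVA 1.8.2 and aligned paired reads to mm10 with RSEM 1.2.09 and Bowtie. RSEM shares out reads with several matching genes. The authors deposited posterior mean TPM (total 1005325 for KO, 994702 for WT) and, from EBSeq, a mean signal for each library (estimated reads over a size factor) for 16318 genes. That second table also holds the authors' fold changes and probabilities, which were not used. The value of 1 read was taken as the most frequent mean signal, 1.16 in KO and 0.86 in WT. Within a tolerance of 0.02, 78.4% and 75.0% of values were whole reads, so no count test was run, and estimated reads were rounded for the Clopper-Pearson intervals.

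The depth was 22086692 and 29710419 estimated reads. A pseudocount of 1 TPM and a minimum mean of 1 TPM were used, and genes were counted past 1.4-fold, the fold the study applied to RNA. The members and gene lists were chosen with earlier results of these data known. Every member could be named, with the highest and lowest gene of each other list and Pgrmc1, and any other gene, and the promoters shown, were chosen after its values were seen, as were the 9 motifs. Promoters came from RefSeq (GRCm38.p6; 42 of 50 members matched) and shared windows from GENCODE M21 transcripts. Protein measurements of the study were not used here, and some genes of the ubiquitin list are not reported here by name. The change, call and interval were run on simulated counts that held counting error only and planted 2-fold changes. The interval assumes such counts, so the simulation cannot check it for other spread or for the smaller changes given here. Alternatives were other pseudocounts, filters, scalings and folds. Computations used scipy 1.17.1, pandas 2.3.3 and numpy 2.4.6 under Python 3.11.15, and plots matplotlib 3.10.9.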

Additional observations from a re-analysis of the deposited data

How the results depend on the processing

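No paired analysis was possible because KO and WT are single pooled libraries, which also leaves no replicate to omit. The count of 0 members past 1.4-fold in each direction was also 0 with 0.1 TPM as the pseudocount, with no minimum or a minimum of 10 TPM, with centred changes, with totals matched outside the 50 most abundant genes, from the authors' means, without Psmc3ip and at 2-fold. At 1.1-fold it was 2 up and 9 down, and at 1.2-fold 0 up and 2 down, as a lower threshold implies. The median of the activators turned sign, from -0.0044 to 0.0077 with the authors' means and 0.0088 after centring, and that of the 19S assembly chaperones went from -0.1095 to -0.0471 at a minimum of 10 TPM, which leaves out Psmd10. The medians of the other subcomplexes kept their sign under every alternative run on them, and no summed ratio crossed 1. With the authors' means the ratio of Psmb8 to Psmb5 in KO over that in WT went from 1.0015 to 0.9978. The 150 values of single members each moved by less than the distance from the middle to the end of that gene's counting interval. Psmb3 changed sign with the authors' means (0.02) and after centring (0.0049), which left 37 members below 0 in place of 38. Across scalings the all-gene median ran from -0.0132 to 0. Depth limits the low members, such as Psmg4 and Psmd10, and pooling limits all of them.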
